A study of Mus musculus with 23 samples.

Results

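The genes described here are nuclear genes for subunits of the 5 oxidative phosphorylation complexes, measured in mouse liver. They were taken by symbol from a table of 24475 genes, as the Ndufa, Ndufb, Ndufc, Ndufs and Ndufv genes, Sdha to Sdhd, and every gene whose symbol starts with Uqcr, Cox4 to Cox8 or Atp5. Of 84 matching symbols, 77 had at least 0.5 RPKM (reads scaled to the length of a gene and to the size of its library) in at least 5 of 23 libraries, and these 77 of the 11939 genes tested are the members. They comprise 7 core and 29 accessory genes named for complex I, 4 of complex II, 8 of complex III, 12 named for complex IV and 17 named for complex V. The name rule also takes Atp5s and Atp5sl, named for ATP synthase but not subunits of it, and Cox7a2l, known as a factor that holds complexes III and IV together in supercomplexes. Ndufa4, named for complex I, is now counted with complex IV.

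Every library is liver RNA from male C57BL/6J mice. They ate regular chow or high-fat chow (HFD) for 4 months, and an antibody was dosed at 10 mg/kg over 3 weeks. REGN1193 blocks the glucagon receptor (GCGR). The other antibody, REGN496, was taken as the isotype control by elimination. Chow control is libraries 1 to 5 (n = 5), chow GCGR antibody 6 to 11, HFD control 12 to 17 and HFD GCGR antibody 18 to 23 (n = 6 each), and no group was left without an antibody. Nothing in the labels ties a library to a mouse of its own. The p-values therefore measure only how far these samples spread, and that spread may be technical. In whole liver, fewer cells of a type and less RNA per cell cannot be told apart.

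Oxidative phosphorylation passes electrons from NADH through complex I, and from succinate through complex II, to ubiquinone, then through complex III and cytochrome c to complex IV, which reduces oxygen. Complexes I, III and IV pump protons across the inner mitochondrial membrane, and complex V, the ATP synthase, makes ATP from their return. In hepatocytes this chain takes up the electrons freed by fatty acid oxidation and the TCA cycle. A few catalytic subunits are encoded in mitochondrial DNA, and the nuclear genes described here supply most of the others.

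Levels differed between members far more than between groups. As mean RPKM over the 23 libraries, the lowest of the complex I core genes was Ndufs1, which carries iron-sulfur clusters, at 35.6. Genes named as complex I accessory ranged from 1.45 for Ndufa4l2 to 573 for Ndufa4. The 4 complex II genes lay close together, at 117 (Sdhc) and 118 (Sdhd) for the membrane anchors, 141 for the iron-sulfur subunit Sdhb and 151 for the flavoprotein Sdha. In complex III the small ubiquinone-binding subunit Uqcrq was highest at 574 and the core protein gene Uqcrc1 lowest at 108. In complex V the catalytic beta subunit Atp5b was highest at 485. The lowest was Atp5s at 2.18, with Atp5sl at 14.3.

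Complex IV has subunits that come as a general form and a muscle or other tissue form, and the liver carried the general forms. Cox4i1, Cox6a1, Cox6b1, Cox7a2 and Cox8a had means of 426, 348, 295, 167 and 290 RPKM. Their counterparts Cox4i2, Cox6a2, Cox6b2 and Cox8b had means of 0.0912, 0.218, 0.213 and 0.207 and were not tested, like Cox7b2 and Cox8c, while Cox7a1 was tested at a mean of 2.13. In library 11 (chow GCGR antibody) the muscle forms stood higher, with Cox6a2 at 3.70, Cox8b at 3.81 and Cox7a1 at 4.14 RPKM. Cox7a1 was nearly as high in library 19, at 4.04. Library 11 had all 7 skeletal muscle markers above every other library, among them Acta1 at 53.0 and Ckm at 21.8. Their sum was 150 against at most 1.26 elsewhere. Of the 3 genes for the identical c subunit of ATP synthase, Atp5g3 had the highest mean (472), then Atp5g1 (189) and Atp5g2 (121). The other untested gene, Ndufs5, an accessory subunit of complex I, was listed under 1e-06 RPKM in all libraries except 7 and 11, which had 2.64 each. Such values lie below the worth of any whole read, 233 genes of the table hold them, and the level of Ndufs5 is therefore uncertain.

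Summed over the 77 members, the RPKM were 12764 ± 617 in chow control and 12484 ± 913 in chow GCGR antibody (SD, n = 5 and 6). In HFD control the sum was 14889 ± 979 and in HFD GCGR antibody 14075 ± 1444 (n = 6 each). As a share of all RPKM of a library, this was 2.07% ± 0.05, 1.97% ± 0.11, 2.29% ± 0.12 and 2.18% ± 0.12 in the same order. The sum of all RPKM also moved, from a mean of 617719 in chow control to 648896 in HFD control. Each library was also given the median, over the members, of its log2(RPKM + 1) minus the gene's mean. That value lay between -0.18 and -0.01 in chow control, -0.29 and 0.01 in chow GCGR antibody, 0.03 and 0.23 in HFD control and -0.09 and 0.29 in HFD GCGR antibody. Libraries 9 (-0.29) and 19 (0.29) stood at the ends: 62 of the 77 members had the lowest value of their group in library 9, and 61 the highest in library 19. The median SD of a member within a group was 0.10, 0.13, 0.11 and 0.16 on the log2 scale, and over all genes tested 0.12, 0.13, 0.13 and 0.16.

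**Figure D1:**
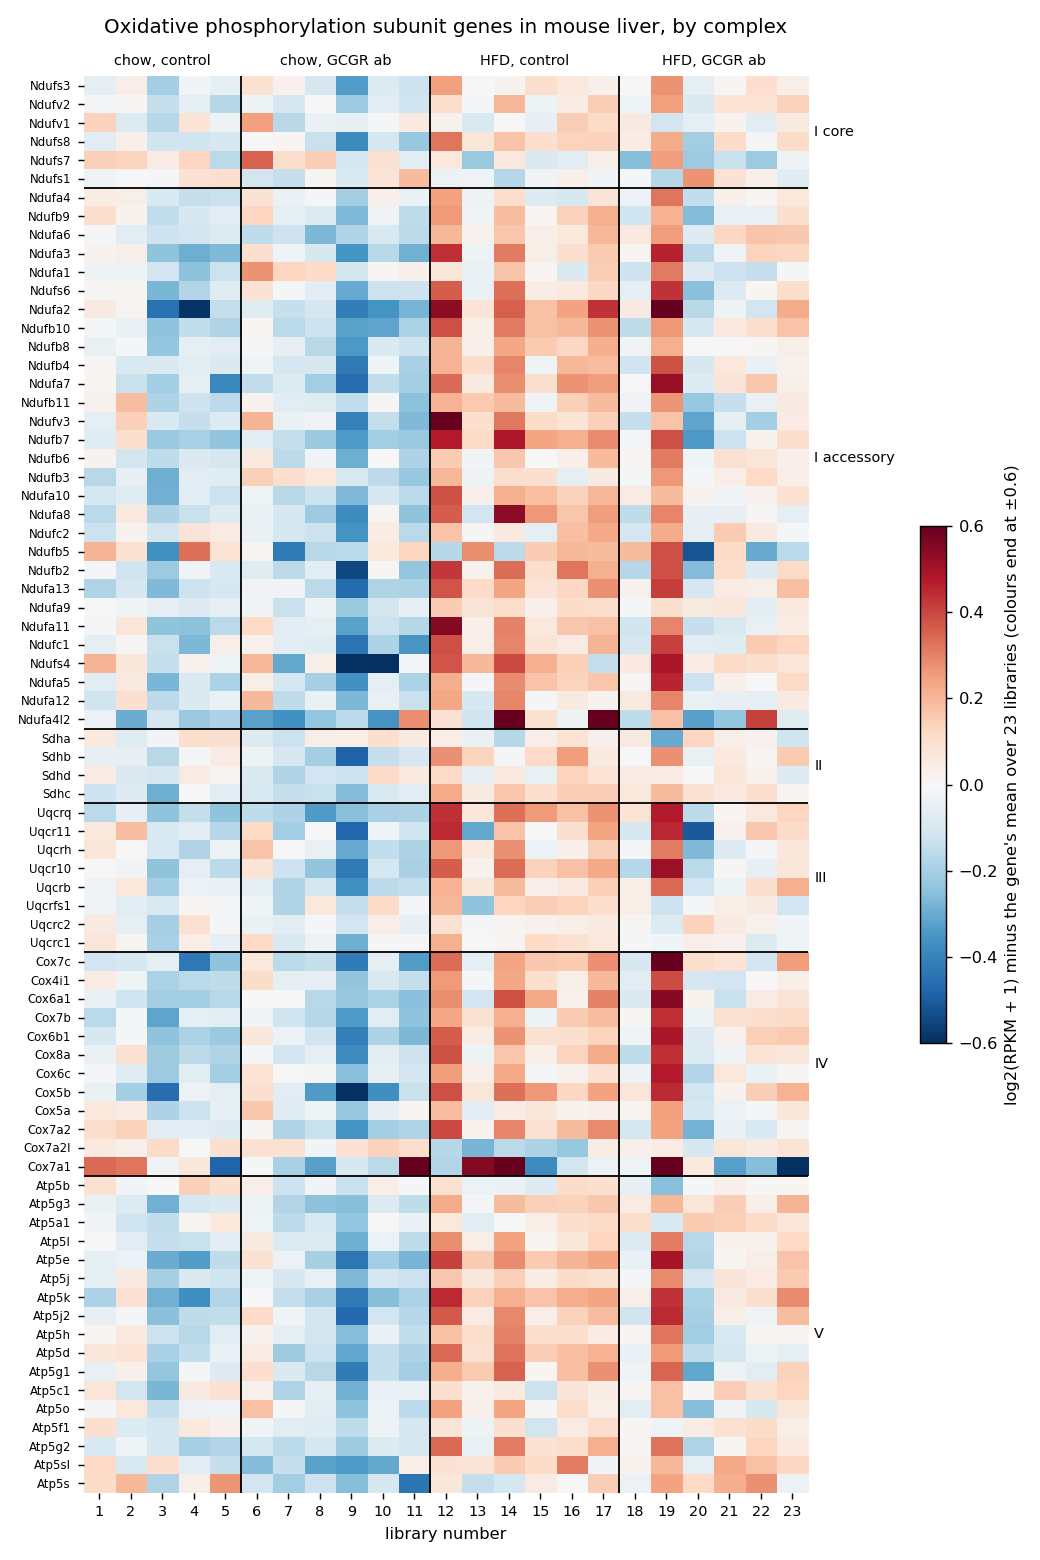
Heat map of the members (rows, 1 member not shown, by complex, highest mean at the top of each) in the 23 libraries (columns, by group), coloured by log2(RPKM + 1) minus the gene's mean over all libraries. Most rows are blue to pale in the chow libraries and red in the HFD control libraries. For most members, library 9 is the bluest column of its own group and library 19 the reddest of its own group.

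On the control antibody, HFD libraries had higher levels of many subunit genes than chow libraries. With limma on log2(RPKM + 1) and Benjamini-Hochberg adjustment over all 11939 genes, 37 of the 77 members (48.1%) rose and 1, Cox7a2l, fell at an adjusted p under 0.05. Over all genes tested, 11.6% were called higher and 18.3% lower. The members' median change was 0.20 on the log2 scale, or 14.5%, against -0.03 over all genes. Above 0 lay 71 of 77 members, while 55.3% of all genes lay below 0. In 24 members every HFD library lay above every chow library, which 5.49% of all genes did. The 37 members called higher became 22 without library 3 and 24 without library 4, 5 or 12. Of all genes called, 38.9% were higher, a share that became 49.8% with median-ratio scaling and 25.7% with each library divided by its summed RPKM.

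Complex I is the NADH dehydrogenase. Of its 7 core genes, 1 rose (Ndufs8, which carries iron-sulfur clusters), and their median change was 0.10. Ndufs8 was at 68.9, 68.9, 70.1, 71.7 and 76.7 RPKM in the chow control libraries and between 79.0 and 93.8 (median 82.5) in HFD control (log2 fold change 0.23 ± 0.07 SE, adjusted p = 0.0226). The groups did not overlap, but the call was lost without library 3, 4 or 12. The core gene Ndufs1 had a change of -0.07 ± 0.07 and did not pass.

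Of the 29 accessory genes 17 rose, 0 fell, and all 29 lay above 0, with a median of 0.25. Ndufa10 (GRCm38 chromosome 1, 92439486 to 92473825), an accessory subunit on the matrix side, was at 74.1, 82.8, 84.4, 86.2 and 86.7 RPKM in chow control and between 92.8 and 119 (median 104) in HFD control. All HFD libraries were above all chow libraries, a change of 0.32 ± 0.06 (adjusted p = 5.37e-04). Ndufb10 (chromosome 17, 24722060 to 24724423), of the membrane arm, was at 108, 113, 115, 124 and 127 RPKM on chow and between 131 and 168 (median 151) on HFD, again without overlap (0.35 ± 0.08, adjusted p = 0.00213). Ndufa4l2, at only 1.09 ± 0.15 and 2.24 ± 1.47 RPKM (SD, n = 5 and 6), was called (0.53 ± 0.20, adjusted p = 0.0486) with overlapping groups. The call was lost under 20 of the 33 other settings in which it was tested.

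In complex II, succinate dehydrogenase, the anchor gene Sdhc (chromosome 1, 171129157 to 171150640) rose. It was at 94.9, 107, 111, 111 and 117 RPKM in chow control and between 121 and 136 (median 129) in HFD control, without overlap (0.25 ± 0.05, adjusted p = 0.00164). Sdhb had a change of 0.18 ± 0.08 (adjusted p = 0.0724), Sdhd of 0.06 ± 0.06 (0.430) and Sdha of -0.04 ± 0.07 (0.720), and none of these passed.

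In complex III 2 of 8 genes rose, Uqcrq and Uqcr10, both small subunits, and all 8 lay above 0 with a median of 0.14. Uqcrq (chromosome 11, 53427922 to 53430831) was at 479, 479, 507, 512 and 547 RPKM in chow control and between 596 and 768 (median 679) in HFD control. No library overlapped, and the change was 0.42 ± 0.08 (adjusted p = 8.45e-04). Uqcr10 changed by 0.31 ± 0.10 (adjusted p = 0.0282), also without overlap, and the call was lost without library 3, 5, 12 or 14. The core protein gene Uqcrc1 had a change of 0.11 ± 0.06 (adjusted p = 0.213).

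Among the 12 genes named for complex IV, cytochrome c oxidase, 7 rose (Cox4i1, Cox5b, Cox6a1, Cox6b1, Cox7b, Cox7c and Cox8a). The calls of Cox8a and Cox4i1 were lost under 19 and 11 of the 34 other settings. Cox5b, a zinc-binding peripheral subunit, was at 182, 217, 241, 243 and 244 RPKM in chow control and between 263 and 328 (median 298) in HFD control (0.39 ± 0.11, adjusted p = 0.0115, no overlap). Cox7a1 stayed near 2 RPKM in both groups (0.05 ± 0.25, adjusted p = 0.910).

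Cox7a2l (chromosome 17, 83501917 to 83514333) fell, the 1 member to do so. It was at 63.7, 65.2, 66.7, 68.4 and 69.4 RPKM in chow control. The HFD control libraries had 52.5, 54.5, 56.0, 56.7, 57.1 and 66.0, so that 5 of 6 lay below all chow libraries and library 17 among them (-0.22 ± 0.05, adjusted p = 0.00345). C57BL/6 mice are known to carry a short form of this protein.

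Of the 17 genes named for complex V 9 rose, with a median of 0.19 over all 17. All 3 c-ring genes and all 3 small membrane subunits (Atp5j2, Atp5k and Atp5l) were among them, but 1 of 4 peripheral stalk genes (Atp5j) and 2 of 5 genes of the catalytic F1 head (Atp5d and Atp5e). Atp5g3 (chromosome 2, 73908447 to 73912464) was at 384, 436, 442, 443 and 456 RPKM in chow control and between 466 and 547 (median 521) in HFD control (0.26 ± 0.06, adjusted p = 0.00263, no overlap). Atp5k (chromosome 5, 108433246 to 108434399), the e subunit, was at 193, 204, 219, 221 and 265 RPKM on chow and between 275 and 341 (median 290) on HFD (0.42 ± 0.10, adjusted p = 0.00263, no overlap). Atp5b, the most abundant gene of this complex, had 506 ± 23.7 and 493 ± 28.6 RPKM (SD, n = 5 and 6) and did not pass (-0.04 ± 0.06, adjusted p = 0.658).

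**Figure D2:**
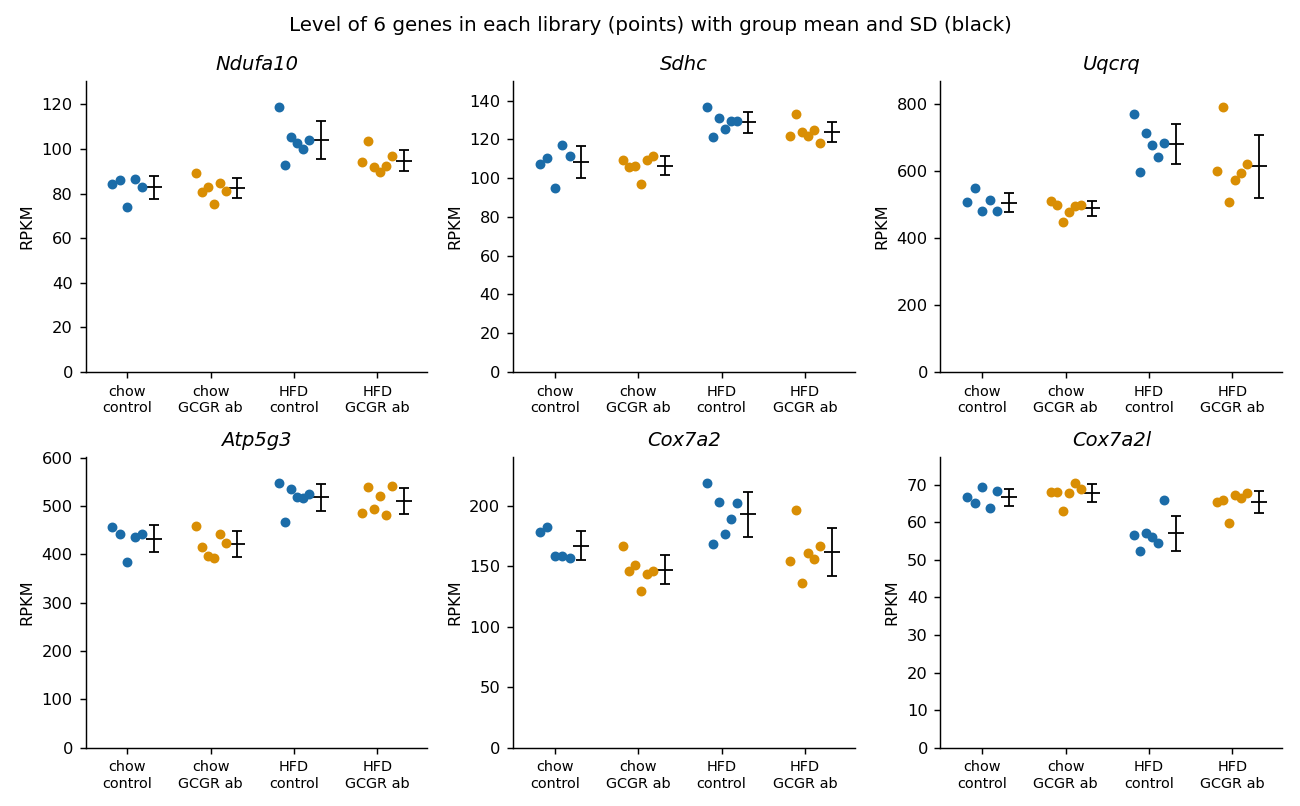
RPKM of 6 genes in each library (points, one per library) with the group mean and SD in black, by diet and antibody. Ndufa10, Sdhc and Atp5g3 have all HFD libraries above all chow libraries of the same antibody, whereas Cox7a2l is lowest in 5 of the 6 HFD control libraries.

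The diet comparison under the GCGR antibody shares no library with the one above. There 28 of 77 members (36.4%) rose and 0 fell, against 13.2% of all genes called higher and 16.6% lower. The count of 0 is limma's. An exact rank-sum test also called 0 lower, and none of the members with a change below 0 reached an unadjusted p under 0.05 apart from Ndufs7 (-0.19 ± 0.09, adjusted p = 0.107), a core subunit of complex I. The median was 0.16, or 11.9%, against -0.02 over all genes. Above 0 lay 70 of 77 members, while 53.8% of all genes lay below 0. The libraries did not overlap in 6 members (Atp5g3, Atp5s, Ndufa10, Ndufa6, Ndufa7 and Sdhc), which 5.15% of all genes did. The count of 28 became 15 without library 9, 16 without library 19, 16 with the GCGR antibody groups fitted alone and 15 in the rank-sum test.

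Complex I again had 1 of 7 core genes (Ndufv2, of the NADH-oxidising module, 0.16 ± 0.06, adjusted p = 0.0426, lost under 12 of the 34 other settings) and 11 of 29 accessory genes called higher. Ndufa6 (chromosome 15, 82350139 to 82354291), an accessory subunit, was between 185 and 209 RPKM (median 200) in chow GCGR antibody and between 211 and 266 (median 247) in HFD GCGR antibody, without overlap (0.28 ± 0.05, adjusted p = 6.38e-04). Ndufa7 was between 86.7 and 113 (median 106) on chow and between 113 and 172 (median 124) on HFD, meeting at 113 to 3 digits but not overlapping (0.33 ± 0.09, adjusted p = 0.00796). Ndufs4, whose loss stops complex I from being fully assembled, had the largest fold change of the called members (0.51 ± 0.18, adjusted p = 0.0399), which rested on library 9 at 23.6 RPKM and library 10 at 40.2 against 52.6 to 75.1 in the other chow libraries. Ndufs4 and Ndufs7, like Ndufa1 and Ppargc1a in later comparisons, fall outside the rule for named genes and were chosen after their values were seen.

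In complex II, Sdhc (0.22 ± 0.05, adjusted p = 0.00293) and Sdhb (0.25 ± 0.07, 0.0117) rose. Sdhc was between 97.2 and 111 RPKM (median 108) on chow and between 118 and 133 (median 123) on HFD. In complex III, Uqcrq (0.32 ± 0.08, 0.00474) and Uqcrb (0.26 ± 0.07, 0.00857) rose. In complex IV, 4 of 12 rose, led by Cox7b (0.28 ± 0.08, 0.00837) and Cox5b (0.37 ± 0.11, 0.0131).

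In complex V 8 of 17 rose. Atp5g3 went from between 393 and 459 RPKM (median 418) to between 481 and 541 (median 507), without overlap (0.28 ± 0.06, adjusted p = 0.00101). The other c-ring genes did not pass (Atp5g1 0.16 ± 0.09, Atp5g2 0.19 ± 0.07 with an adjusted p of 0.0502). Both of the genes that are not subunits rose, Atp5sl from 12.1 ± 1.39 to 15.5 ± 1.25 RPKM (SD, n = 6 each; 0.34 ± 0.07, adjusted p = 0.00126) and Atp5s from 1.75 ± 0.235 to 2.47 ± 0.328 (0.34 ± 0.08, 0.00320). Under control antibody neither passed, with -0.08 ± 0.08 for Atp5s and 0.13 ± 0.07 for Atp5sl.

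Of the members called higher, 18 were shared between the diet comparisons, 48.6% of the 37 under control antibody and 64.3% of the 28 under GCGR antibody. They were 8 accessory genes of complex I (Ndufa5, Ndufa6, Ndufa7, Ndufa9, Ndufa10, Ndufa13, Ndufb8 and Ndufb10), Sdhc, Uqcrq, 4 of complex IV (Cox5b, Cox6b1, Cox7b and Cox7c) and 4 of complex V (Atp5e, Atp5g3, Atp5j and Atp5k). Another 30 members were called higher in neither, and 68 of 77 lay above 0 in both. The matching shares over all genes tested were not counted, so whether 18 or 68 is many cannot be read from them. Whether the diet effect differed between the antibodies is the same contrast as whether the antibody effect differed between the diets. In that contrast limma called 0 members, 2 lay above and 1 below 0 at an unadjusted p under 0.05, and the smallest adjusted p was 0.166 (Atp5s, 0.42). Of all genes, 0.201% were called in it in either direction.

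**Figure D3:**
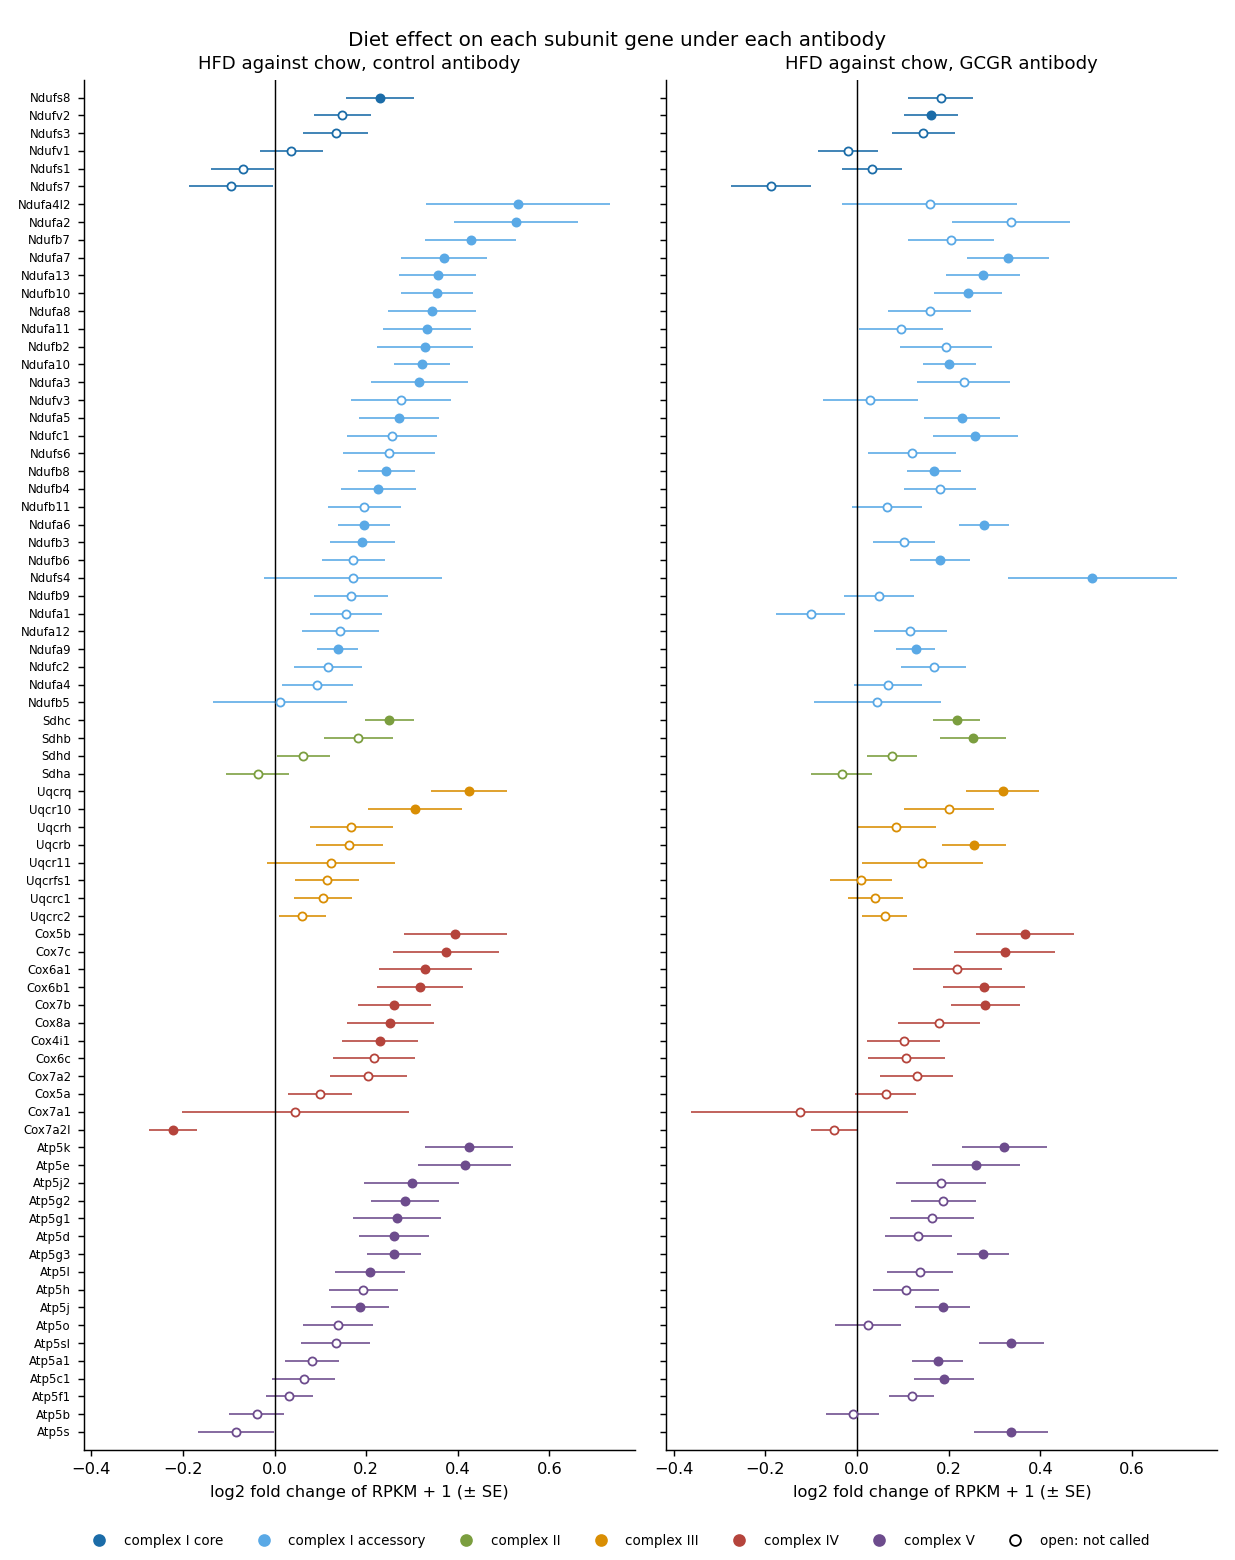
Log2 fold change of RPKM + 1 (± SE) of HFD against chow for each member but 1 that is not shown, by complex, under control antibody (left) and GCGR antibody (right). Filled points have an adjusted p under 0.05. Most points lie to the right of 0 in both panels, and over all 77 members 71 and 70 lay above 0.

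On chow, the GCGR antibody moved no member past the threshold. Limma called 0 of 77 higher and 0 lower, against 0.394% and 0.553% of all genes, and an exact rank-sum test called 0 genes. At an unadjusted p under 0.05 there were 1 higher (Ndufa1, which stabilises the membrane arm of complex I, 0.18 ± 0.08) and 3 lower members (Atp5s, Atp5sl and Cox7a2). The smallest adjusted p was 0.117 (Atp5s, -0.29 ± 0.08). The median was -0.04 against 0.03 over all genes, and 62 of 77 members lay below 0, as did 37.0% of all genes.

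On HFD, the GCGR antibody raised 1 member and lowered 2, or 1.30% and 2.60% of the members, against 5.33% and 2.12% of all genes. The median was -0.09 against 0.05 over all genes, and 69 of 77 members lay below 0, as did 37.2% of all genes. Of all genes called, 71.5% were higher, which became 42.8% with median-ratio and 45.0% with TMM scaling. No member had libraries without overlap between the antibodies. Few genes did at all, 239 of 11939 higher and 101 lower. Cox7a2l was between 52.5 and 66.0 RPKM (median 56.3) in HFD control and between 59.8 and 67.8 (median 66.2) in HFD GCGR antibody (0.19 ± 0.05, adjusted p = 0.0204). In chow GCGR antibody it was between 63.1 and 70.4 (median 68.1). This comparison shares the 6 HFD control libraries with the diet comparison that called it lower. The call was lost under median-ratio and TMM scaling and with the HFD groups alone. It was also lost in the rank-sum test, which called 0 of all genes in this comparison and so could keep no call.

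The genes that fell were Cox7a2, the general form of a small complex IV subunit, and Atp5d, the delta subunit of the F1 head. These calls were lost under 21 and 20 of the 34 other settings, of which 18 and 17 left out 1 library. Cox7a2 (chromosome 9, 79755241 to 79771422) was between 169 and 219 RPKM (median 196) in HFD control and between 136 and 196 (median 158) in HFD GCGR antibody (-0.26 ± 0.08, adjusted p = 0.0494). On chow it was at 167 ± 12.3 with control and 147 ± 12 with GCGR antibody (SD, n = 5 and 6; -0.18 ± 0.08, adjusted p = 0.435). Atp5d was between 220 and 261 RPKM (median 236) in HFD control and between 185 and 246 (median 199) in HFD GCGR antibody (-0.24 ± 0.07, adjusted p = 0.0478). In both genes library 19 was the HFD GCGR antibody library that lay highest. Without it 12 members were called lower, 4 without library 13, and 0 or 1 without any 1 of 19 other libraries. Under median-ratio and TMM scaling 5 were called lower.

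Subunit transcripts are short, with a median transcript length of 704 nucleotides in GENCODE M21 against 2093 over the tested genes that have one, and other short genes moved with diet too. Under control antibody, 17 of the 27 members of up to 600 nucleotides were called higher (63.0%), against 20.5% of 396 other genes of that length. Among those above 1000 and up to 2500 nucleotides it was 5 of 17 members (29.4%) and 12.98% of 4568 other genes. The median change of the members was higher than that of the other genes in each of the 5 length classes and under both antibodies. After a trend on transcript length was subtracted in each library, a setting chosen after seeing the data, 25 members rose under control antibody against 14.2% of all genes, and 23 under GCGR antibody against 15.98%. When each library's RPKM were divided by their sum, also chosen after seeing the data, these counts were 27 (7.76% of all genes) and 29 (11.1%).

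**Figure D4:**
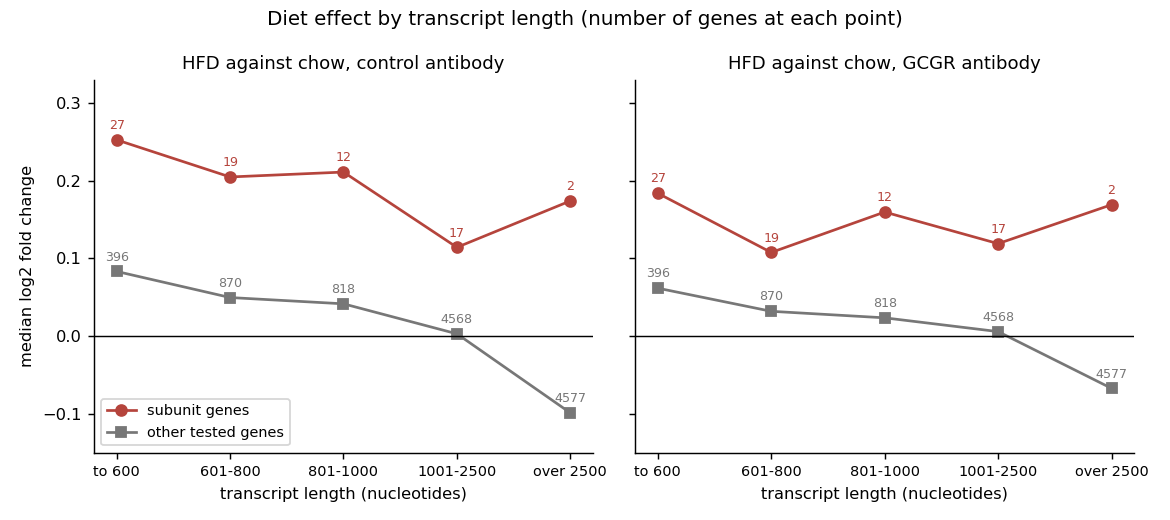
Median log2 fold change of HFD against chow in 5 classes of transcript length, for the members (red circles) and the other tested genes (grey squares), with the number of genes at each point, under control antibody (left) and GCGR antibody (right). Members lie above the other genes in each class, from 0.25 against 0.08 in the shortest class on the left. The longest class holds only 2 members.

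The other genes of the pathway were taken from fixed lists. Of 13 mitochondrially encoded subunits, 10 rose with diet under control antibody (median 0.34) and 3 under GCGR antibody (median 0.24), and 0 fell in either. CYTB, the cytochrome b subunit of complex III, went from 8102 ± 1100 to 12121 ± 921 RPKM under control antibody (SD, n = 5 and 6; 0.59 ± 0.12, adjusted p = 0.00117). ND3, of complex I, went from 2090 ± 369 to 3062 ± 131 (0.57 ± 0.13, 0.00298). Neither gene's groups overlapped. Cycs and Cyc1, cytochrome c and the cytochrome c1 subunit of complex III, did not pass in either diet comparison.

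Of 47 assembly factors, which build the complexes but stay out of them, 10 rose and 1 fell under either antibody. Uqcc2, a complex III assembly factor, went from 27.0 ± 1.31 to 41.7 ± 6.34 RPKM under control antibody (0.60 ± 0.12, adjusted p = 8.72e-04). Cmc2 went from 4.14 ± 0.874 to 5.60 ± 0.809 (0.37 ± 0.09, 0.00546). Of 77 mitochondrial ribosomal protein genes, which serve the translation of the mitochondrially encoded subunits, 29 rose and 3 fell under control antibody (median 0.16) and 13 rose under GCGR antibody. Mrpl45 went from 8.23 ± 0.291 to 11.1 ± 0.257 RPKM (0.40 ± 0.06, adjusted p = 1.20e-04) and Mrps28 from 17.1 ± 1.88 to 25.0 ± 2.69 (0.52 ± 0.09, 1.75e-04), both without overlap.

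Cytosolic ribosomal protein genes had a median transcript length of 712 nucleotides. What part transcript length has in how they and the members differ was not tested. Of 83, 2 rose and 3 fell under control antibody (median -0.02), and 0 rose and 23 fell under GCGR antibody (median -0.16). Rpl4 went from 296 ± 15.8 to 223 ± 14.97 RPKM under GCGR antibody (-0.41 ± 0.06, adjusted p = 2.12e-05) and Rpl12 from 268 ± 27.2 to 170 ± 23.1 (-0.66 ± 0.10, 4.74e-05). Of 38 proteasome genes 4 rose and 1 fell under control antibody, and 4 rose and 4 fell under GCGR antibody. The immunoproteasome genes Psmb9 (11.4 ± 1.63 to 23.7 ± 1.80 RPKM, 1.01 ± 0.16, adjusted p = 6.73e-05) and Psmb8 (17.6 ± 2.99 to 27.0 ± 1.54, 0.61 ± 0.11, 3.62e-04) led them.

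Of 13 TCA cycle genes, 4 rose and 0 fell under control antibody, and 5 rose and 0 fell under GCGR antibody. There Suclg2, a succinyl-CoA ligase subunit, went from 88.2 ± 17.3 to 123 ± 17.4 RPKM (0.48 ± 0.12, adjusted p = 0.00542) and Fh1, fumarase, from 61.1 ± 3.79 to 71.5 ± 5.72 (0.22 ± 0.06, 0.0107). Of 13 coenzyme Q genes 5 rose and 1 fell under control antibody, and 3 rose and 2 fell under GCGR antibody. Adck3, a regulator of coenzyme Q synthesis, fell from 155 ± 8.36 to 77.9 ± 19.8 RPKM under control antibody (-1.02 ± 0.14, adjusted p = 1.63e-05), while Coq7 rose from 17.8 ± 2.01 to 25.3 ± 3.50 (0.48 ± 0.11, 0.00190). Of 7 exchange carriers and uncouplers tested, Slc25a5, an ADP/ATP carrier, rose under both antibodies, and under GCGR antibody from 261 ± 12.9 to 335 ± 24.8 RPKM (0.36 ± 0.06, adjusted p = 2.04e-04). Ucp2 rose there from 17.3 ± 2.93 to 29.9 ± 12.1 (0.67 ± 0.23, 0.0301). Of 21 import genes 5 rose under control and 4 under GCGR antibody and 0 fell, led by Timm17b (14.1 ± 1.20 to 16.9 ± 1.06 RPKM, 0.25 ± 0.06, adjusted p = 0.00545) and Tomm6 (117 ± 11.6 to 147 ± 15.5, 0.33 ± 0.09, 0.0115).

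The transcription factors and regulators known to drive these genes went both ways. Of 15, 2 rose (Ppara and Sirt3) and 5 fell (Gabpa, Gabpb1, Nrf1, Pprc1 and Yy1) under control antibody, and 5 rose and 4 fell under GCGR antibody. Ppara, the nuclear receptor of fatty acid oxidation, was between 26.8 and 54.9 RPKM in chow GCGR antibody and between 62.3 and 79.2 in HFD GCGR antibody (0.77 ± 0.13, adjusted p = 1.25e-04). Nrf1, an activator of subunit genes, ranged from 2.53 to 3.53 in the chow libraries and from 1.46 to 2.30 in the HFD libraries (-0.38 ± 0.08, 0.00157). Transcripts of Ppargc1a, a coactivator of mitochondrial biogenesis, were at 1.28 RPKM in chow control and 1.60 in HFD control (0.20 ± 0.10, adjusted p = 0.157), and they rose from 0.956 to 1.58 under GCGR antibody (0.39 ± 0.10, 0.00522).

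**Figure D5:**
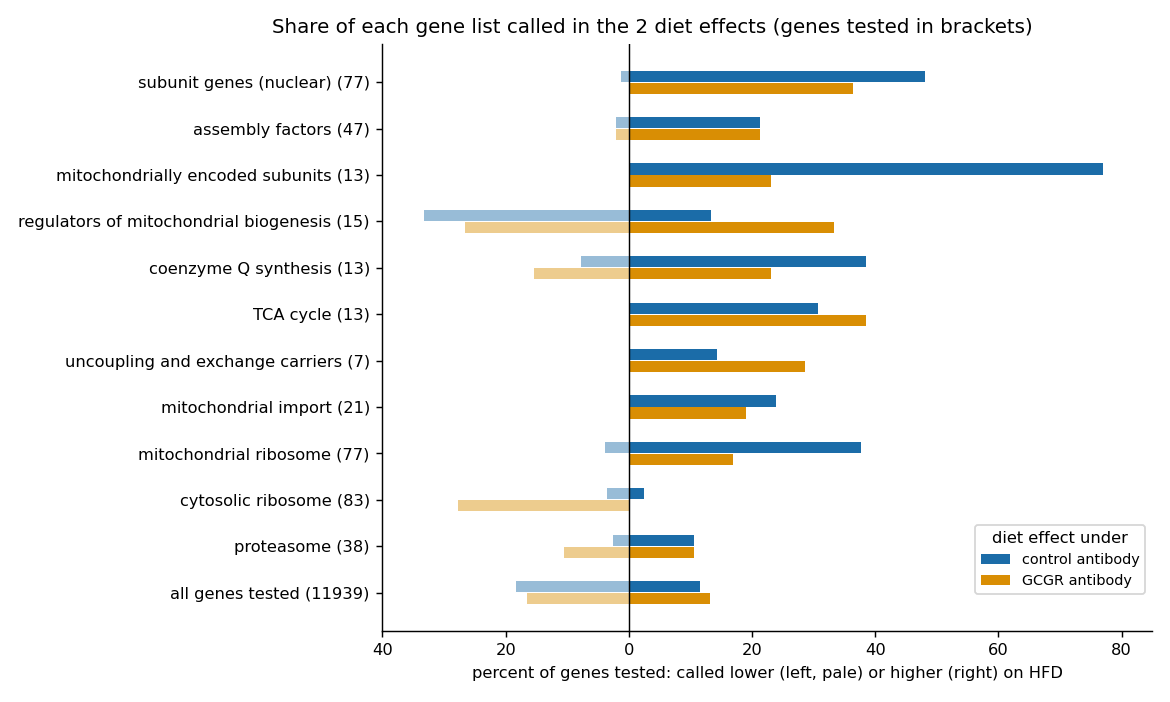
Percent of the tested genes of each list (number in brackets) called higher (right) or lower (left, pale) on HFD against chow, under control antibody (blue) and GCGR antibody (orange). The nuclear subunit genes stand at 48.1% and 36.4% called higher against 11.6% and 13.2% of all genes, while the cytosolic ribosome list has 0 called higher and 23 of 83 called lower under GCGR antibody.

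Promoter sequence was looked up for the members in RefSeq's table for GRCm38.p6, which holds 71 windows of 300 bases (250 before the start and 50 after) for 65 of them. Among those without an entry were Atp5a1, Cox4i1, Cox6c, Ndufa2, Ndufa4l2, Ndufb9, Ndufs1, Sdhc, Uqcrb, Uqcrc2 and Uqcrq. The windows were searched on both strands for the core motifs of NRF1 (GCGCANGCG), of ETS factors such as GABP (CCGGAAG) and of YY1 (AAGATGGCG). NRF1 and GABP are known activators of respiratory chain genes. The NRF1 letters were in 28.2% of the members' windows, in 13.1% of those of tested genes and in 6.25% of all promoters. The ETS letters were in 22.5%, 17.4% and 8.86%, and the YY1 letters in 12.7%, 3.07% and 1.403%. At least 1 motif was present in 35 of the 65 members. The matching share over the tested genes was not counted, so whether 35 is many cannot be read from it. The NRF1 letters were in 12 of 36 windows of members that rose with diet under control antibody and in 8 of 35 windows of the others. For the ETS letters it was 9 of 36 and 7 of 35. The YY1 letters went the other way, with 3 of 36 and 6 of 35.

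To show how the motifs sit in members that rose and in members that did not, the windows of 5 genes are printed 5′ to 3′ on the gene's strand, which is the minus strand in each, with matches in capitals. They were chosen after the matches and values were seen. Atp5k (chr5:108434350-108434649) rose under both antibodies and holds a palindromic stretch that matches the NRF1 letters on both strands, and 1 ETS match. Cox6a1 (chr5:115348909-115349208) rose under control antibody and has 3 NRF1 matches, of which 2 overlap, and 1 ETS match. Ndufa9 (chr6:126849095-126849394) rose under both and has 1 YY1 match just after its start. Sdha (chr13:74350191-74350490) was not called in any comparison and has 3 separate NRF1 matches. Cox7a2l (chr17:83514284-83514583), which fell on HFD under control antibody, has none of these letters.
Atp5k: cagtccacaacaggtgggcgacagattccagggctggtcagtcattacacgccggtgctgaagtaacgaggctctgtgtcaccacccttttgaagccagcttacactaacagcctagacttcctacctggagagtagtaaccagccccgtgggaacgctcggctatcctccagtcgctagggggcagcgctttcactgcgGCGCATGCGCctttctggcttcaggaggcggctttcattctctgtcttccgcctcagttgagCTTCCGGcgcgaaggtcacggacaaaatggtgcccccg
Cox6a1: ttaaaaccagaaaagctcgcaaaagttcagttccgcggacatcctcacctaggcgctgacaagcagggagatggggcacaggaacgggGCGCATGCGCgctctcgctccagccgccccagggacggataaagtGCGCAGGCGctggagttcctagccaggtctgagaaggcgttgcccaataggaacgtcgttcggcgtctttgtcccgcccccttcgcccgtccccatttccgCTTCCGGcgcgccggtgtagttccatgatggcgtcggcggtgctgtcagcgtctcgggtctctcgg
Ndufa9: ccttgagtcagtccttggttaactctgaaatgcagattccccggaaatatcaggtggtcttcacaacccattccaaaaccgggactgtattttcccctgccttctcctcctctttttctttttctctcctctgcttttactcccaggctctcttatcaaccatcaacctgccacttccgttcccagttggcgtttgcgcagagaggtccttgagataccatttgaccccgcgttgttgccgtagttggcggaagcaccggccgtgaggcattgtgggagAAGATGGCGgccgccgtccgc
Sdha: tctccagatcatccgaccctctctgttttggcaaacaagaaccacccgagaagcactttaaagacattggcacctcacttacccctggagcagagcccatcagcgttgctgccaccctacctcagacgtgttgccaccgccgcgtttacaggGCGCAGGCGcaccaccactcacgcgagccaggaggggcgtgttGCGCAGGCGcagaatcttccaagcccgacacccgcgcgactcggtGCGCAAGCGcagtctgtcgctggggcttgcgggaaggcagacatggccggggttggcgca
Cox7a2l: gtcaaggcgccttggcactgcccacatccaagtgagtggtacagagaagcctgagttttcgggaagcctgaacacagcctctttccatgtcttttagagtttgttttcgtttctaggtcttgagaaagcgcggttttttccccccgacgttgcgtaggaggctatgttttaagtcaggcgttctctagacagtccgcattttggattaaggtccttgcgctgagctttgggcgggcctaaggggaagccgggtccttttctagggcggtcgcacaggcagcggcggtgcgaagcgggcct
These matches describe letters, not bound sites. They stood in members that were called and in members that were not.

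Markers of other cell types were summed per library. Hepatocyte markers had sums between 52700 and 70398 RPKM. Alb, the albumin gene, was at 26485 or more in every library, as the liver label requires. Of the 7 markers, Ttr rose and Cps1 and Fgb fell with diet under control antibody. Under GCGR antibody, Cyp2e1 rose and Cps1 and Fgb fell with diet. Between the antibodies on HFD, Cyp2e1 was higher and Alb lower with GCGR antibody. The muscle-marked library 11 belongs to chow GCGR antibody, and without it 21 rather than 28 members rose with diet under GCGR antibody. The white adipocyte list summed to between 0.702 and 2.87 RPKM in chow control and between 4.40 and 74.8 in HFD control, nearly all of it Cfd, while Adipoq, Lep and Plin1 were at most 0.642, 0.0405 and 0.355 RPKM in any library. Under GCGR antibody the list ran from 1.75 to 32.7 on chow and from 12.3 to 31.0 on HFD. Of the brown adipocyte list, Ucp1 was at most 0.0802 RPKM. With diet, Cidea rose and Elovl3 fell under control antibody, and Ppargc1a rose and Elovl3 fell under GCGR antibody. The list, mostly Elovl3, summed to between 172 and 330 RPKM in chow control and between 36.9 and 161 in HFD control. Under GCGR antibody it ran from 68.1 to 211 on chow and from 16.2 to 42.8 on HFD. The red blood cell list summed to between 516 and 1148 RPKM in chow control and between 1287 and 2542 in HFD control, and under GCGR antibody to between 773 and 2162 and between 802 and 1830. The part of these cells in the diet results was not tested. Macrophage marker sums overlapped between chow control (43.4 to 92.1) and HFD control (53.3 to 89.1). Under GCGR antibody they ran from 80.7 to 116 on chow and from 47.7 to 87.0 on HFD, and 3 of 7 macrophage markers fell (Clec4f, Csf1r and Vsig4, list median -0.35). There 3 of 6 stellate cell markers rose (Col1a1, Col3a1 and Pdgfrb) and 4 of 6 lay above 0 (list median 0.14). Their sums were 12.98 to 20.3 on chow and 11.5 to 47.8 on HFD. Of 5 endothelial markers, Lyve1 rose with diet under both antibodies and Kdr fell under GCGR antibody. The bile duct marker Sox9 fell and the T cell marker Cd3g rose with diet under GCGR antibody. On HFD, Lyve1, Cd3g and the T cell marker Il2rb were higher with GCGR antibody. The part of these cell types in the 28 calls under GCGR antibody was not tested. Read totals are not in the table. Steps of low values gave relative depths of 0.861 to 1.14 around the median library.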

How the data were processed

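Liver RNA in 23 libraries of 4 groups was sequenced from stranded mRNA libraries, per the labels' protocols. The authors deposited RPKM values per gene. The submitters' processing notes name bcl2fastq 2.17, FastQC and GRCm38. Which aligner, read counter or gene annotation they used is not given in the sources used here.

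Genes with at least 0.5 RPKM in at least 5 libraries were tested with limma 3.58.1 (R 4.3.3) on log2(RPKM + 1), with 4 group means over all 23 libraries, a mean-variance trend and Benjamini-Hochberg adjustment over all 11939 genes. Fold changes are on that scale, which understates the change of low genes. Calls have an adjusted p under 0.05. The fit was run on simulated data in which the noise of each gene was independent. That run does not cover genes that move together by library. Tables were handled in Python 3.11.15 with pandas 2.3.3. Transcript length is the median over a gene's protein-coding transcripts in GENCODE M21. Gene positions are on GRCm38.

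The members and lists were chosen with earlier results of these data known. Named are, per complex, the 2 members with the smallest adjusted p in each comparison that called any, the highest and the lowest by mean RPKM, the tissue isoform pairs and all complex II genes. Of each other list, they are the 2 genes with the smallest adjusted p in the comparison that called most of it. The values of 1 member are not reported here, though counts over members include it. The name patterns for the cytosolic ribosome and proteasome also take Rps6k kinases, Rps19bp1 and Psmc3ip, which were left out. Of 34 other settings, 23 left out a library each. The others changed the pseudocount, the filter, the scaling (median-ratio, or TMM, the trimmed mean of M values), the samples fitted, the mean-variance trend or the length trend, or used an exact rank-sum test.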

Additional observations from a re-analysis of the deposited data

Results flagged for a closer look

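In groups of 5 and 6 libraries, 159 sets of values were examined for a highest or lowest library set apart from the rest by more than Dixon's 95% limit, which chance alone exceeds in about 5% of them. The limit was passed in 28, and most fell on libraries 19 and 11.

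Library 19 (HFD GCGR antibody) was set apart past that limit as the highest of its group for 8 subunit genes. Cox4i1 was at 555 RPKM there and at 433 in the next library, Cox6a1 at 503 against 363, Cox6b1 at 411 against 326 and Cox7b at 453 against 361. Cox8a was at 389 against 304, Ndufa7 at 172 against 134, Uqcr10 at 278 against 205 and Atp5d at 246 against 201. Atp5b went the other way, with library 19 lowest at 406 and the next library at 468.

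Library 11 (chow GCGR antibody) was the highest of its group for the muscle forms Cox6a2 at 3.70 RPKM (next library of the group 0.187), Cox7a1 at 4.14 (1.98) and Cox8b at 3.81 (0.176). The same held for Ndufa4l2 at 1.85 (1.097). In other groups, Cox7a1 reached 4.04 in library 19 and Ndufa4l2 reached 4.85 in library 14. Library 11 was also highest of all libraries for all 7 skeletal muscle markers. Acta1 was at 53.0, Tnnt3 at 29.5, Ckm at 21.8 and Mylpf at 17.03 RPKM. Myh1 was at 14.2, Myl1 at 11.2 and Myh4 at 2.97.

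Cox7a2l had a library set apart in 3 groups. Library 17 (HFD control) was highest at 66.0 RPKM against 57.1, library 20 (HFD GCGR antibody) lowest at 59.8 against 65.3, and library 8 (chow GCGR antibody) lowest at 63.1 against 67.8. Library 9 (chow GCGR antibody) was lowest for Cox8a at 221 against 263 and for Ndufa7 at 86.7 against 103. Library 3 (chow control) was lowest for Atp5g3 at 384 against 436. In HFD control, library 12 was highest for Atp5k at 341 against 294 and library 14 lowest for Ndufs1 at 31.4 against 34.6.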

How the results depend on the processing

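The number of members called higher with diet under control antibody lay between 25 and 47 under the settings other than leaving out 1 library, and between 22 and 46 when 1 library was left out. The 1 called lower became 0 in the rank-sum test. Under GCGR antibody the 28 called higher became 16 with the 2 groups alone and 15 in the rank-sum test, and ran from 15 to 34 when 1 library was left out. The count of 0 called lower became 1 without libraries 19 and 20 (Ndufs7), 1 with summed-RPKM scaling (Ndufs7) and 2 with the length-trend correction (Ndufa1 and Ndufs7), and 0 to 1 when 1 library was left out. For the antibody on chow, the 0 called lower became 1 with the length-trend correction, and 0 to 1 when 1 library was left out (1 without library 3). For the antibody on HFD, the 1 called higher became 0 with median-ratio scaling, TMM scaling, the 2 groups alone and the rank-sum test. In that comparison the rank-sum test called 0 of all genes, so it could keep no call. The 2 called lower became 0 with no filter, with the 2 groups alone and in the rank-sum test, 4 without libraries 19 and 20 and with summed-RPKM scaling, and 5 with median-ratio scaling, TMM scaling and the length-trend correction. They ran from 0 to 12 when 1 library was left out. The cause of these changes was not tested. Of 42 calls of named genes, 23 were kept under every setting, 4 others were lost only in the rank-sum test, and 0 reversed direction. Summed-RPKM scaling and the length-trend correction were chosen after seeing the data. No paired analysis was possible because the library numbers in the labels are unique across groups. Without read totals, the depth behind low members such as Atp5s and Ndufa4l2 is unknown.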
